A study of Homo sapiens with 15 samples.

Results

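A set of 7 genes that are recurrently deleted or mutated in high-grade serous ovarian cancer were followed through Pt-exo-seq data of the ovarian cancer cell lines PEO1 and PEO4. They were RB1, NF1, CDKN2A, CDK12, MAP2K4, SMAD4 and STK11, out of 20090 protein-coding genes with a symbol of their own in the annotation. The choice was by name, with earlier results of these data known. The reads of each were taken as the sum over the 1 kb windows whose midpoint fell in the gene body (30 windows for CDKN2A to 328 for RB1), and again with 250 kb added on either side (586 to 884 windows) as a view of the surrounding DNA. RB1, NF1, CDK12, MAP2K4, SMAD4 and STK11 had a mean gene body count of at least 50 reads per library and entered the tests together with 17230 other genes. CDKN2A did not.

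PEO1 and PEO4 are established lines grown from the same patient, before and after the tumour became clinically resistant to platinum, and the labels call PEO1 sensitive. Both lines were left untreated or given 16 µM cisplatin for 5 h, PEO4 was also given 32 µM, and each of these 5 groups held 3 replicate libraries. No agent other than cisplatin was used for these libraries, and each line is a single model of its tumour. Pt-exo-seq digests sheared DNA with exonucleases that stop at platinum adducts, so a read marks a fragment that resisted digestion; untreated libraries hold fragments that survived without platinum. Total counts ranged from 27705392 to 56643611 per library. Nothing in the labels says that replicates were separate cultures, so p-values measure the spread between these libraries, which may be technical.

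Tumour suppressor genes restrain growth, and tumours commonly lose them by deleting 1 copy or all copies. RB1 encodes the retinoblastoma protein, which holds back the E2F factors that start DNA replication, and CDKN2A encodes the CDK4 and CDK6 inhibitor p16. NF1 encodes neurofibromin, which switches off RAS. MAP2K4 encodes a kinase that activates the stress kinases JNK and p38, SMAD4 the shared SMAD of TGF-beta and BMP signalling, STK11 the kinase LKB1 that activates AMPK, and CDK12 a kinase of the RNA polymerase II tail that keeps long DNA repair genes expressed. Serous ovarian cancers are known for many losses and gains of chromosome arms, and a deleted stretch of DNA can give neither reads nor adducts.

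Cisplatin binds mainly neighbouring guanines, so the GG and CC content of a gene sets how many sites it offers. The gene bodies ranged from 37.1% GC in MAP2K4 to 57.5% GC in STK11, against a median of 44.3% over the genes tested. The 250 bases before the canonical start (GRCh37, read from the reference genome) are shown for 3 of the genes: CDKN2A, because reads were absent from both lines there, and STK11 and CDK12, because they held the most and the fewest GG and CC steps of the 7. Capitals mark every base that is part of a GG or CC step, on the strand of the gene.

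CDKN2A promoter, chr9:21974857-21975106, minus strand: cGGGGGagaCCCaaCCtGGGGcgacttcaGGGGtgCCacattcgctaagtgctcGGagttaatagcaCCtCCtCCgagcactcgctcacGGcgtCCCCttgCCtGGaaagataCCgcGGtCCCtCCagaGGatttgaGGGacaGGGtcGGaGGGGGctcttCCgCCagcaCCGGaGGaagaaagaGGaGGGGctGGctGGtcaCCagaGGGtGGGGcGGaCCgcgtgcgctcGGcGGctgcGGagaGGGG

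STK11 promoter, chr19:1205527-1205776, plus strand: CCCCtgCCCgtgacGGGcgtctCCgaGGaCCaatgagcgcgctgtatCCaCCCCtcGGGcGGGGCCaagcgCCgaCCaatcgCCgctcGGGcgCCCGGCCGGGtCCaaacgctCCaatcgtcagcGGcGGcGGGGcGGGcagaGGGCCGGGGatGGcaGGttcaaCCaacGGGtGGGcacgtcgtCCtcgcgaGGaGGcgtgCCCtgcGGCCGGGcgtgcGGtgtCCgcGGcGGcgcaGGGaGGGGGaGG

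CDK12 promoter, chr17:37617489-37617738, plus strand: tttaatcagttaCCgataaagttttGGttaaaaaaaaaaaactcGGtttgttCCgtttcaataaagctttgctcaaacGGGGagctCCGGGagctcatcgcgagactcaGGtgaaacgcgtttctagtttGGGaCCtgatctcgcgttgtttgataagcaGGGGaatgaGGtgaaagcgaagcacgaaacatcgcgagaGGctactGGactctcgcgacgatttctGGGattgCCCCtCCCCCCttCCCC

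The STK11 promoter held 73 GG or CC steps, more than 80.3% of 19812 promoters of the same length, and the CDK12 promoter 33, more than 14.5% of them. CDKN2A had 64, RB1 66, SMAD4 65, MAP2K4 61 and NF1 55, against a median of 56. Reads within 1 kb of these starts were few. In the 2 windows at the STK11 start, counts lay between 0 and 6 in untreated PEO1 and between 2 and 21 in untreated PEO4, and in the 2 windows at the MAP2K4 start between 0 and 20 over all libraries. The 3 windows at the CDK12 start held more, 10 to 74 reads, with group medians of 27 to 44. Single starts were not compared further, and the gene bodies were used.

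To compare genes of unlike base composition, the count of a gene in a library was divided by the mean count of autosomal windows with the same GC percentage in that library. This GC-matched read level is 1 where a gene gave as many reads as the average window of its GC content. It counts reads, not DNA copies. Over 12286 genes with at least 20 windows, the level had a median of 1.10 in untreated PEO1 and 1.09 in untreated PEO4, and with 250 kb either side genes gathered near 0.6 and near 1.1, with few between 0.70 and 0.80. A level under 0.75, a bound placed in that gap after the values were seen, was found for 29.5% of these genes in untreated PEO1, for 26.9% in untreated PEO4 and for 23.1% in both lines.

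RB1, NF1, CDKN2A, MAP2K4 and STK11, 5 of the 7, lay under 0.75 in both lines, and CDK12 and SMAD4 lay above it in both. CDKN2A was near 0. RB1 had a level of 0.598 ± 0.0254 (SD, n = 3) in untreated PEO1 and 0.549 ± 0.0196 in untreated PEO4. For NF1 the levels were 0.595 ± 0.0411 and 0.615 ± 0.0528. MAP2K4 had 0.627 ± 0.0347 and 0.524 ± 0.0322, and STK11 0.563 ± 0.0655 and 0.586 ± 0.0758. CDK12 reached 1.19 ± 0.0961 in PEO1 and 1.22 ± 0.0371 in PEO4. In the order of levels in PEO1, RB1, NF1, MAP2K4 and STK11 could not be separated beyond their spread, SMAD4 (0.910 ± 0.0840) came next and CDK12 was highest; in PEO4 SMAD4 (1.17 ± 0.00851) lay just below CDK12, and over the 9 PEO4 libraries their ranges overlapped. Over all 15 libraries RB1 lay between 0.527 and 0.625, NF1 between 0.556 and 0.670, MAP2K4 between 0.438 and 0.666 and STK11 between 0.440 and 0.667, all under 0.75. Treated libraries did not all keep to the untreated range of their line. In PEO1, MAP2K4 lay between 0.599 and 0.666 untreated and between 0.537 and 0.570 at 16 µM. In PEO4, its lowest level was 0.495 untreated and 0.438 at 32 µM, and that of STK11 was 0.517 untreated and 0.440 at 16 µM.

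**Figure D1:**
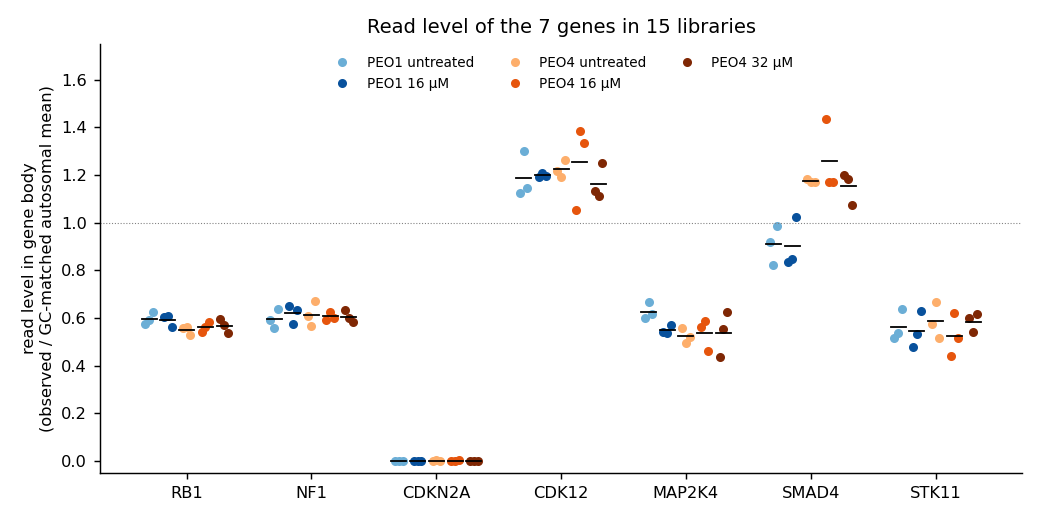
GC-matched read level in the body of each of the 7 genes (vertical axis, observed count over the mean of autosomal windows of equal GC) in every library, with points coloured by line and dose and black bars at the mean of 3 replicates. RB1, NF1, MAP2K4 and STK11 lie between 0.438 and 0.670 in all libraries, CDKN2A lies at 0 or just above, CDK12 lies above 1 throughout, and SMAD4 is lower in PEO1 than in PEO4.

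CDKN2A gave no read in 13 of the 15 libraries. Its gene body (chr9:21967751-21995300, minus strand, 3 exons in the canonical transcript, 30 windows) held 0 reads in all 6 PEO1 libraries. In PEO4 it held 2 reads in untreated replicate 2, 2 reads in the third replicate at 16 µM and 0 in the other libraries; these 2 libraries were the deepest of the series, with total counts of 48580024 and 56643611. At the level of the neighbouring DNA, between 142 and 283 reads would have fallen in the gene per library, 2743 over all 15, where 4 were counted. In the 13 libraries at 0, that count allows up to 3 reads, which is 1.49% to 2.12% of the neighbouring level, an allowance for counting error only. No fold change between lines or treatments was computed for it, since both groups were at or under that floor.

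The empty stretch was far larger than the gene and had the same ends in both lines. Its ends were set in each library as the split of the windows with the highest Poisson likelihood. The first empty window started between positions 20917800 and 20920500 of chromosome 9 in the 15 libraries, and the last one ended between 23849200 and 23851900. The reads pooled within each line gave the same ends in PEO1 and PEO4, 20919600 and 23849200, a length of 2.93 Mb. Of 3255 windows, 124 held any read in the 6 PEO1 libraries together and 192 in the 9 PEO4 libraries. The reads inside came to 35 to 122 per library, or 0.188% to 0.445% of what the DNA on both sides gave.

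This stretch touched 24 protein-coding genes, of which 23 lay wholly inside it and 19 had 0 reads in all libraries. CDKN2B, the neighbour that encodes the inhibitor p15, had 0 reads, as did KLHL9 and DMRTA1 and the 16 interferon genes of the cluster. MTAP, a methionine salvage enzyme that is often deleted together with CDKN2A, had 6 reads in PEO1 and 31 in PEO4 over 150 windows, and ELAVL2, a neuronal RNA-binding protein gene, 3 and 16 over 152 windows. HACD4 had 9 and 27. The left end fell in an intron of FOCAD: 24 of its 44 canonical exons lay before the end, 20 after it and none in the windows where the ends were placed. FOCAD gave 27320 reads in its 290 windows outside the stretch and 31 in its 85 windows inside. On the right, the stretch ended 22.9 kb beyond ELAVL2. The DNA on both sides was itself at a level of 0.543 in PEO1 and 0.516 in PEO4. Under 0.05 reads per window and library were counted in 29 of the 12286 genes with at least 20 windows, and 3 of these 29 lay in this stretch.

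**Figure D2:**
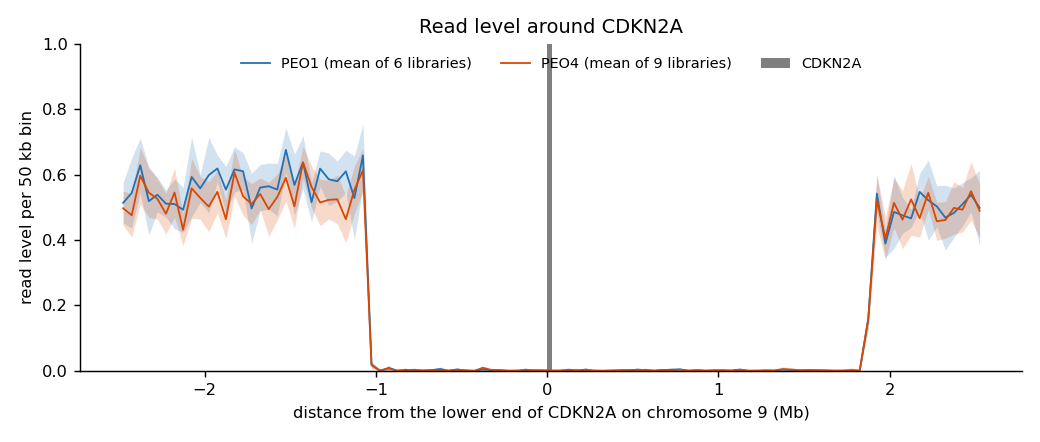
GC-matched read level in 50 kb bins (vertical axis) against distance from the lower end of CDKN2A in Mb (horizontal axis), as the mean over 6 PEO1 and 9 PEO4 libraries with 1 SD shaded and the gene as a grey bar. Both lines fall from about the flanking level of 0.543 and 0.516 to nearly 0 at the same distances on each side, 2.93 Mb apart.

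RB1, NF1, MAP2K4 and STK11 lay within long stretches at the same low level, not in gaps of their own. RB1 (chr13:48877880-49173572, plus strand) was at 0.598 and 0.549 in a chromosome that was at 0.551 ± 0.00210 in untreated PEO1 and 0.533 ± 0.00282 in untreated PEO4 as a whole. MAP2K4 (chr17:11924146-12047147) and NF1 (chr17:29421945-29709134), both on the plus strand, were surrounded by levels of 0.541 and 0.554 in PEO1, and 0.506 and 0.562 in PEO4, over 2 Mb either side. In the 250 kb bins between these genes, the mean level was at most 0.749 in PEO1 and 0.686 in PEO4. The low levels of MAP2K4 and NF1 may therefore not be separate cases. STK11 (chr19:1177557-1228430, plus strand) was surrounded by 0.517 in PEO1 and 0.514 in PEO4.

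CDK12 (chr17:37617739-37723812, plus strand) is 7.91 Mb from NF1 on the same chromosome and was on the other side of a step. The split with the highest Poisson likelihood between the 2 genes lay between positions 35272400 and 35276900 in all 15 libraries. The level was 0.511 to 0.550 before the step and 1.11 to 1.19 after it, a ratio of 2.07 to 2.23. A like step lay beyond STK11 on chromosome 19, between positions 6778400 and 6790100, from a level of 0.498 to 0.591 up to 1.40 to 1.62. Both steps were found in every library of both lines, and no test was made of where they lay.

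Reads per window in the gene body were also set against those in the 250 kb on either side, in a log2 ratio per library, to see whether any gene was lower or higher than its own surroundings in 1 line. GC was not matched in this ratio. The body of NF1 had 37.59% GC against 43.65% with its flanks, and that of MAP2K4 37.13% against 40.73%. MAP2K4 had a ratio of 0.17 ± 0.03 in untreated PEO1 and −0.10 ± 0.12 in untreated PEO4, a difference of −0.27 with an exact two-sided permutation p of 0.1, the smallest that 3 against 3 libraries allow. NF1 differed by −0.24 (exact p = 0.2), SMAD4 by −0.10 (exact p = 0.4), CDK12 by −0.07 (exact p = 0.4), RB1 by −0.05 (exact p = 0.2) and STK11 by 0.09 (exact p = 0.7). None of these 6 unadjusted tests could pass 0.05 by design, and the signs for NF1, CDK12 and SMAD4 turned in the 16 µM libraries.

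SMAD4 (chr18:48554898-48611415, plus strand, 12 exons) was the gene that differed between the lines in most of the comparisons. With 250 kb either side, its scaled counts in untreated cells were 6940, 6083 and 6375 in the 3 PEO1 libraries and 8025, 8162 and 7786 in the 3 PEO4 libraries. The groups did not overlap, but how many other genes were without overlap was not counted. The log2 change of PEO4 over PEO1 was 0.31 (SE 0.06, 95% interval 0.17 to 0.44), a fold of 1.24, with an adjusted p of 0.00153 by edgeR's quasi-likelihood test; 34.3% of the genes with their flanks passed this test. At 16 µM PEO1 gave 6025, 6444 and 6504 and PEO4 gave 8586, 7838 and 7785, a log2 change of 0.35 (SE 0.06, adjusted p = 0.000489), where 24.5% of genes passed.

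The SMAD4 gene body alone gave the same direction with less precision. Untreated PEO1 gave scaled counts of 745, 574 and 712 and untreated PEO4 gave 779, 818 and 755, and the log2 change of 0.21 (SE 0.16) did not pass (adjusted p = 0.368). At 16 µM, PEO1 gave 526, 648 and 789, and PEO4 gave 1167, 768 and 795. The log2 change was 0.47 (SE 0.16, adjusted p = 0.0384), but 1 PEO4 library was far above the others: without PEO4 16 µM replicate 1 the change was 0.26 with an adjusted p of 0.331, and without PEO1 16 µM replicate 1 it was 0.34 with 0.187. Leaving out PEO1 16 µM replicate 2 (0.46, adjusted p = 0.0983) or PEO4 32 µM replicate 3 (0.47, adjusted p = 0.0506) also ended the call. With the GC trend of each library fitted as an offset, the SMAD4 body passed in untreated cells at a log2 change of 0.39 (adjusted p = 0.00228) and at 16 µM at 0.50 (adjusted p = 7.49e-05).

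The stretch of chromosome 18 around SMAD4 that set PEO1 apart was 10.9 to 11 Mb long. In each of the 6 PEO1 libraries, the division into 1 stretch and the rest that had the highest likelihood, over 100 kb bins, began at position 40000001 or 40100001 and ended at 51000000 or 51100000. Inside it the level was 0.833 to 0.882, and outside 1.11 to 1.12. The same division gave no such stretch in PEO4, where inside was 1.05 to 1.09 times outside over 30.6 to 54.9 Mb. In the stretch from 40100001 to 51000000, untreated PEO1 had a level of 0.867 ± 0.0141 (SD, n = 3) and untreated PEO4 1.08 ± 0.00888, while the rest of the chromosome was at 1.12 and 1.06. Of the 42 tested genes inside, 38 had a positive log2 change in untreated cells and 16 passed as higher in PEO4. At 16 µM these numbers were 40 and 18, and none passed as lower in either comparison. Over all 17236 gene bodies tested, 2285 passed as higher in untreated cells and 1780 at 16 µM, with median log2 changes of −0.003 and −0.013. The stretch also holds 2 listed SMAD genes: SMAD7, the inhibitory SMAD, was higher in untreated PEO4 (log2 change 0.71, adjusted p = 0.00238) and had 0.27 at 16 µM (adjusted p = 0.424), and SMAD2, which carries the TGF-beta signal to SMAD4, was higher at 16 µM (0.48, adjusted p = 0.00611) and had 0.18 in untreated cells (adjusted p = 0.325). Since the bounds were set on the same libraries, these counts describe the stretch and do not test it.

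**Figure D3:**
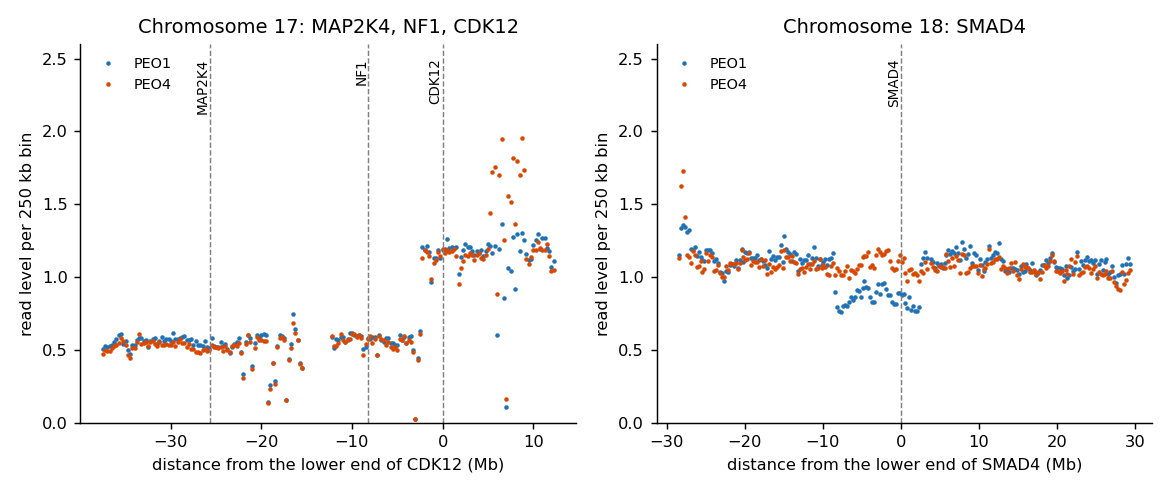
GC-matched read level in 250 kb bins (vertical axis) against distance in Mb from the lower end of CDK12 on chromosome 17 (left) and of SMAD4 on chromosome 18 (right), as means over 6 PEO1 and 9 PEO4 libraries, with dashed lines at the genes. On the left both lines step from 0.511 to 0.550 up to 1.11 to 1.19 between NF1 and CDK12. Beyond CDK12 the lines part: PEO4 lies above PEO1 from the bin at 5.26 Mb (1.44 against 1.21) to that at 9.01 Mb (1.735 against 1.254). On the right PEO1 alone is at 0.833 to 0.882 in a stretch of 10.9 to 11 Mb that holds SMAD4.

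RB1, NF1, CDK12, MAP2K4 and STK11 did not pass between the lines in the gene body, in untreated cells or at 16 µM; 22.4% and 18.1% of all gene bodies did. RB1 had scaled body counts of 2387, 2173 and 2355 in untreated PEO1 and 1956, 2075 and 1809 in untreated PEO4, a log2 change of −0.24 (95% interval −0.44 to −0.04, adjusted p = 0.0749). MAP2K4 had 1060, 1003 and 957 against 778, 742 and 709, a change of −0.44 (interval −0.78 to −0.10, adjusted p = 0.058). STK11 had 250, 329 and 389 against 450, 466 and 398, a change in the other direction of 0.44 (interval 0.02 to 0.86, adjusted p = 0.133). NF1 changed by −0.12 (interval −0.34 to 0.09) and CDK12 by 0.03 (interval −0.18 to 0.25). At 16 µM the same 5 genes had log2 changes between −0.06 and 0.13, with adjusted p from 0.614 to 0.991. DESeq2 in place of edgeR put RB1 (adjusted p = 0.0475) and MAP2K4 (adjusted p = 0.0401) past the threshold in untreated cells. Leaving out PEO1 16 µM replicate 1, which left the compared libraries as they were, did so too (0.0484 and 0.0328), and for MAP2K4 so did leaving out PEO4 16 µM replicate 1 (0.0339) or 3 (0.0499) or PEO4 32 µM replicate 1 (0.0155).

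With 250 kb either side, RB1 and MAP2K4 passed as lower in untreated PEO4, by log2 changes of −0.22 (SE 0.07, adjusted p = 0.0287) and −0.22 (SE 0.08, adjusted p = 0.0401). The libraries also differed in how counts followed base composition: over all genes tested, the log2 change of untreated PEO4 over PEO1 rose by 0.34 for every 10 percentage points of GC. RB1 and MAP2K4 are poor in GC and STK11 is rich. With the GC trend as an offset, RB1 changed by −0.04 (adjusted p = 0.488) and MAP2K4 by −0.07 (adjusted p = 0.211), and STK11 went from 0.38 to −0.09 (adjusted p = 0.112), while SMAD4 went from 0.31 to 0.42 (adjusted p = 2.89e-17). Both calls were also lost without PEO1 untreated replicate 1 or 3 or PEO4 untreated replicate 1 or 3, with adjusted p values for RB1 of 0.125, 0.0649, 0.0599 and 0.128, and for MAP2K4 of 0.158, 0.0575, 0.110 and 0.168. RB1 was not called with flanks of 1 Mb either (adjusted p = 0.126), and MAP2K4 was not called without PEO1 untreated replicate 2 (0.0601), PEO1 16 µM replicate 2 (0.0513) or 3 (0.0509), or PEO4 32 µM replicate 3 (0.0523).

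**Figure D4:**
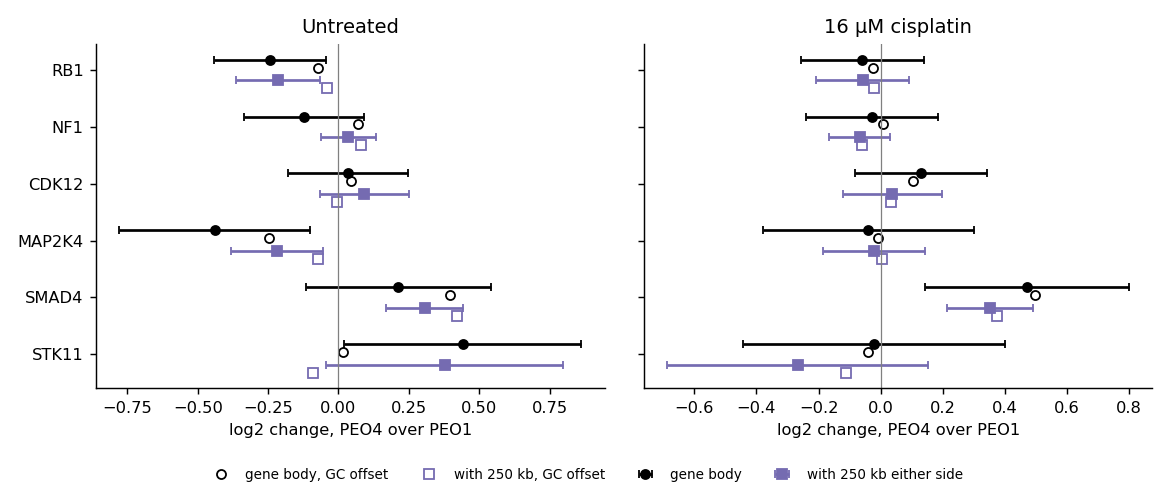
Log2 change of PEO4 over PEO1 (horizontal axis) for 6 genes in untreated cells (left) and at 16 µM cisplatin (right), for the gene body (black circles) and with 250 kb either side (purple squares); filled marks with bars are edgeR estimates with 95% intervals and open marks the same with a GC offset. With the offset, RB1, MAP2K4 and STK11 move towards 0 in untreated cells (to −0.07, −0.25 and 0.02 for the body), and SMAD4 moves away from it, to 0.39.

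The other genes that overlapped a member with its 250 kb flanks were compared between the untreated lines in the same fit. Genes that overlap the body of the member were not set apart. Such a gene shares windows with the member and is not a separate observation. None of the 5 tested neighbours of RB1, the 8 of NF1 and the 2 of MAP2K4 passed; those with the smallest p were CYSLTR2 (log2 change −0.43, adjusted p = 0.109) and LPAR6 (−0.29, adjusted p = 0.159) beside RB1, ADAP2 (0.30, adjusted p = 0.212) and RAB11FIP4 (0.25, adjusted p = 0.290) beside NF1, and DNAH9 (−0.14, adjusted p = 0.272) and ZNF18 (−0.23, adjusted p = 0.58) beside MAP2K4. Beside SMAD4 1 of 5 passed, the malic enzyme gene ME2 (0.38, adjusted p = 0.0205), while MRO had 0.30 (adjusted p = 0.167). Beside CDK12 1 of 10 passed, NEUROD2 (1.02, adjusted p = 0.0121), while IKZF3 had −0.21 (adjusted p = 0.113). Beside STK11 3 of 18 passed, among them APC2 (0.86, adjusted p = 0.0162) and ABCA7 (0.60, adjusted p = 0.0379), all as higher in PEO4. The GC-matched level of APC2 was 0.494 in PEO1 and 0.620 in PEO4, and that of ABCA7 was 0.503 and 0.516. At 16 µM no neighbour of any of the 7 genes passed, and APC2 (−0.44, adjusted p = 0.362) and ABCA7 (−0.51, adjusted p = 0.103) had the opposite sign. These 5 calls among the neighbours in untreated cells stand beside 22.4% of all gene bodies. Neither of the 2 neighbours of CDKN2A had the reads to be tested, and no neighbour passed in a cisplatin comparison.

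None of the 6 tested genes passed in a cisplatin comparison. In PEO1 at 16 µM against untreated, 0.0058% of gene bodies passed (1 of 17236, by edgeR; 5 by DESeq2; 971 at an unadjusted p under 0.05). At both doses of PEO4, 0% passed (0 by DESeq2 as well; 451 and 1186 at an unadjusted p under 0.05), and 0% passed for the difference between the response of PEO4 at 32 µM and that of PEO1 at 16 µM (1 by DESeq2; 1391 unadjusted). The doses of that last comparison were chosen by the authors to give like amounts of adducts. The 2 PEO4 comparisons share the untreated PEO4 libraries.

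MAP2K4 was the gene with an unadjusted p under 0.05 in the difference of responses. Its log2 ratios to the untreated mean of the line were −0.50, −0.18 and −0.08 in PEO1 at 16 µM, and −0.28, 0.40 and 0.50 in PEO4 at 32 µM, so 1 PEO4 library lay among the PEO1 libraries. The fitted changes were −0.24 in PEO1 (interval −0.58 to 0.10, adjusted p = 0.932) and 0.24 in PEO4 (interval −0.10 to 0.58, adjusted p = 0.729), and their difference of 0.49 had an unadjusted p of 0.0478 and an adjusted p of 0.596. With the GC offset the difference was 0.24 (adjusted p = 0.868). RB1 had −0.06 in PEO1, and in PEO4 0.12 at 16 µM and 0.19 at 32 µM (interval of the last −0.01 to 0.39). All 6 treated PEO4 libraries had RB1 ratios above 0, the highest 0.32, against untreated ratios from −0.11 to 0.09. The same 6 libraries were above 0 for NF1 too, from 0.002 to 0.26, and how many other genes did so was not counted. The GC-matched level of RB1 in PEO4 was 0.549 untreated, 0.563 at 16 µM and 0.567 at 32 µM.

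The remaining genes did not pass either. NF1 had log2 changes of −0.01 in PEO1, 0.09 in PEO4 at 16 µM and 0.14 at 32 µM. CDK12 had −0.04, 0.05 and −0.11, SMAD4 had −0.05, 0.21 and 0.14, and STK11 had 0.19, −0.28 and −0.08. In STK11, the richest in GC, 1 PEO4 library at 16 µM stood at −0.86 and the other 2 at −0.24 and 0.10. With the GC offset all 18 of these responses lay between −0.20 and 0.10, the lowest being MAP2K4 in PEO1. Over the 6 genes the median log2 change was −0.05 in PEO1 and 0.10 and 0.14 in PEO4, beside −0.002 to 0.005 over all genes tested. The intervals were widest for STK11, from −0.24 to 0.61 in PEO1 and from −0.69 to 0.14 in PEO4 at 16 µM, and changes within them could not be detected at this depth and spread. CDKN2A, with next to no reads in either line, gave no response to measure.

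**Figure D5:**
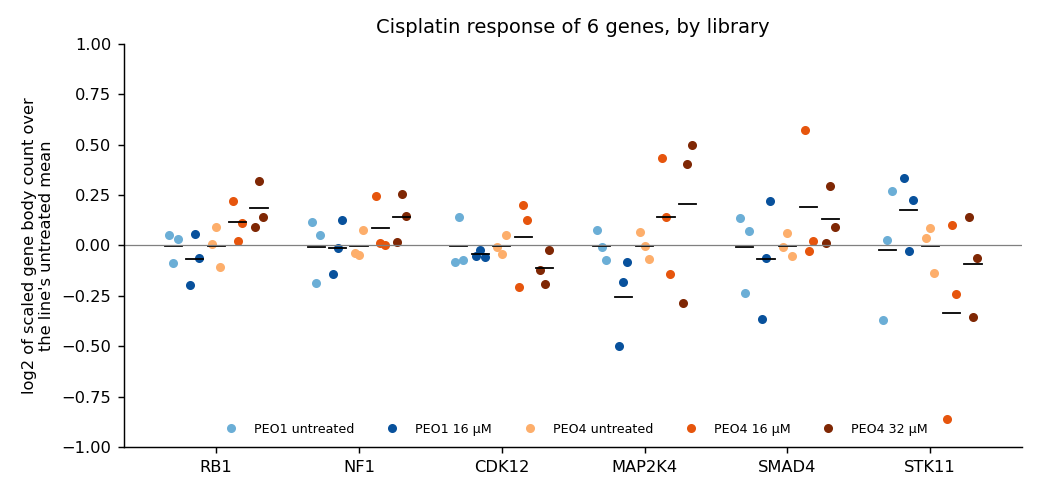
Log2 of the scaled gene body count over the mean of the line's 3 untreated libraries (vertical axis) for 6 genes in every library, with black bars at the group means. Treated libraries spread across 0 for nearly all genes, from −0.86 (STK11, PEO4 16 µM) to 0.57 (SMAD4, PEO4 16 µM).

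The partners of the 7 genes were taken from lists of 56 genes in 6 groups, of which 54 could be tested (CDKN2B and HRAS could not). The changes given for them are from the fit without the GC offset. Between untreated lines 8 passed as higher in PEO4 and 5 as lower, against 22.4% of all genes, and at 16 µM 4 and 4; none passed in a cisplatin comparison. Among 11 tested regulators of the restriction point, where RB1 and p16 act, 2 passed as higher and 0 as lower: E2F3, an activating E2F (log2 change 0.70, adjusted p = 1.08e-05), and CDKN1A, which encodes the CDK inhibitor p21 (1.53, adjusted p = 0.000183). At 16 µM E2F3 was higher again (1.07, adjusted p = 5.68e-08) and CDKN1A had 0.76 (adjusted p = 0.0579). Both are on chromosome 6, with levels of 0.645 and 0.468 in PEO1 and both at 1.10 in PEO4.

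In the RAS-MAPK list, the pathway that NF1 restrains, 2 of 11 passed as lower in untreated PEO4, SPRED1, which recruits neurofibromin to the membrane (−0.91, adjusted p = 3.82e-06), and BRAF, the kinase below RAS (−0.65, adjusted p = 3.65e-05). At 16 µM both were lower again (−0.77, adjusted p = 3.52e-05 and −0.57, adjusted p = 0.000202). SPRED1 went from a level of 1.78 in PEO1 to 1.08 in PEO4. Of the 7 kinases and factors around JNK, 3 passed as lower, led by MAPK10, the neuronal JNK3 (−1.25, adjusted p = 3.18e-08, with levels of 1.10 and 0.520), and MAPK8, JNK1 (−0.36, adjusted p = 0.0159), and 1 as higher, MAP2K7, the other kinase that activates JNK (0.67, adjusted p = 0.01). At 16 µM MAPK10 was lower again (−0.96, adjusted p = 1.19e-06), while MAPK8 had −0.02 (adjusted p = 0.98) and MAP2K7 −0.0027 (adjusted p = 0.998). The GC-matched level of MAPK8 was 1.163 in PEO1 and 1.015 in PEO4, and that of MAP2K7 was 1.795 and 1.861.

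Among 9 genes of TGF-beta and BMP signalling, 2 passed as higher and 0 as lower, SMAD7 and the activin receptor ACVR2A (0.82, adjusted p = 0.000475, with levels of 0.546 and 1.11), which had 0.78 at 16 µM (adjusted p = 0.000891). In the LKB1-AMPK list 2 of 10 were higher, STRADA, the pseudokinase that activates LKB1 (0.88, adjusted p = 1.95e-05), and TSC2, which restrains mTOR (0.50, adjusted p = 0.0167). The GC-matched level of STRADA was 1.08 in PEO1 and 1.82 in PEO4, but that of TSC2 was 1.22 and 1.21. At 16 µM STRADA was still higher (0.59, adjusted p = 0.00169), and TSC2 had −0.18 (adjusted p = 0.64). Among 6 transcription kinases and partners 1 was higher, CDK9 (1.61, adjusted p = 0.0147), the kinase that releases paused polymerase, which had 0.51 at 16 µM (adjusted p = 0.69). CCNK, the cyclin of CDK12, had 0.16 in untreated cells (adjusted p = 0.415). Of the 41 listed genes with at least 20 windows, 8 had a level under 0.75 in both lines, beside 23.1% of all genes.

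The gene on another chromosome whose scaled counts followed those of each member most closely over the 15 libraries was OVCH1 for RB1 (Pearson r = 0.938), XRCC5 for NF1 (0.941), EMP2 for CDK12 (0.874), CDH8 for MAP2K4 (0.934), DNAAF11 for SMAD4 (0.954) and MCRIP2 for STK11 (0.931). These are the highest of 15916 to 16980 correlations each, over libraries that share their line, depth and GC trend.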

How the data were processed

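The deposited table held raw counts of Pt-exo-seq reads in 1 kb windows stepped by 900 bp along hg19 (3439652 windows, 15 libraries). Per the study's methods and the submitters' processing notes, the authors used BBDuk to trim single-end reads, bowtie2 to align them, the ENCODE blacklist as a filter and Picard against duplicates; versions are not given in the sources used here. Neighbouring windows overlap, so some reads count in both.

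The ends of all 23 chromosomes used matched GRCh37; chromosome Y was left out. Window counts were summed over GENCODE v44 gene bodies lifted to GRCh37, alone and with 250 kb either side. A gene body was the full annotated extent of the gene, which can exceed the canonical transcript. That of RB1 ended at 49173572 and its canonical transcript at 49056026. The body of STK11 started at 1177557 and its canonical transcript at 1205777. Sums were scaled by TMM and tested with edgeR 4.0.16 (quasi-likelihood F test, 5 groups in 1 fit, mean count of at least 50, Benjamini-Hochberg over all genes tested, threshold 0.05). The residual degrees of freedom were 10. The median coefficient of variation from the fitted dispersion trend, which leaves out counting error, was 13.9%. DESeq2 1.42.0, limma 3.58.1, other scalings, other spans, a GC offset (lowess), a replicate block and each library left out were alternatives. Body against flanks was tested by exact permutation. On simulated data, edgeR, DESeq2 and limma in their plain form were tried for the comparison of the untreated lines only. The other comparisons and alternatives were not. GC classes for the read level held at least 500 windows.

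The members and gene lists were chosen with earlier results of these data known. Named were all members, at most 2 neighbours each, at most 2 listed genes in each direction by p in the untreated comparison, and 1 most alike gene per member; SMAD2, CCNK and genes of the chromosome 9 stretch were named after their values were seen. Equal replicate numbers did not pair the libraries (see the closing section). Total counts of 27705392 to 56643611 per library set the precision, and the limit that a count of 0 allows was taken as 3 counts. One short list of other genes is not reported here.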

Additional observations from a re-analysis of the deposited data

How the results depend on the processing

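The level results did not move: 5 of the 7 genes lay under 0.75 in each untreated line in the main calculation and with 250 kb either side, the canonical transcript span, reference windows with at least 1 read, the treated libraries or any untreated library left out, alternatives chosen after seeing the data. Gene bodies called between untreated lines came to 3859, and to 3186 to 4332 with 1 library left out; at 16 µM they came to 3115 and to 2784 to 3180. A fit of only the groups compared called 5521 gene bodies in untreated cells and 2853 at 16 µM. The GC offset gave 4126 and 3832. With the flanks, 6883 (5091 to 8506) and 4923 (4638 to 5200) genes were called. Only the groups compared in the fit gave 11795 in place of 6883, and the GC offset 7697 in place of 4923 (7628 with the replicate block). The 1 call of PEO1 at 16 µM became 0 with library totals, no filter, limma, the replicate block, the GC offset with and without it, only the groups compared and every other window, 0 to 1 with a library left out, and 5 with DESeq2. The 0 calls of both PEO4 doses and of the response difference stayed at 0 with a library left out (0 to 0), and DESeq2 gave 1 for the last. The cause of these shifts was not tested.

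Libraries with the same replicate number did not deviate together. Of 30 such pairs the correlation of deviations was over 0.1 in 9 (mean −0.0496, against 0.0236 for 60 pairs of unlike number), and 2 of 15 libraries followed their own number best, so no pairing was used. With the replicate block 3549 and 3017 gene bodies were called between lines and 5670 and 4714 genes with flanks; SMAD4 at 16 µM (adjusted p = 0.0705) and the flanked RB1 (0.0558) and MAP2K4 (0.0649) in untreated cells were no longer called, and the flanked SMAD4 was.

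Directions that turned were all of values that had not passed the test. With the GC offset, alone and with the replicate block, NF1 turned between untreated lines (0.068 and 0.068), at 16 µM (0.0071 and 0.0086), in PEO1 (0.045 and 0.046), in PEO4 at 16 µM (−0.015 and −0.014) and 32 µM (−0.025 and −0.023) and in the response difference (−0.070 and −0.069). SMAD4 turned in PEO4 at 32 µM (−0.017 and −0.017) and the response difference (−0.013 and −0.015), and STK11 in PEO1 (−0.072 and −0.071), in PEO4 at 32 µM (0.027 and 0.031) and the response difference (0.099 and 0.10). With flanks, STK11 (−0.090 and −0.089) and CDK12 (−0.0047 and −0.0051) turned between untreated lines and MAP2K4 at 16 µM (0.0027 and 0.0031). Every other window turned CDK12 between untreated lines (−0.016) and in the response difference (0.0019), and NF1 (0.038) and MAP2K4 (0.085) at 16 µM. The canonical transcript span turned CDK12 in the same comparisons (−0.034 and 0.046), NF1 in PEO1 (0.00067) and STK11 in PEO4 at 32 µM (0.030). Library totals turned NF1 in PEO1 (0.016) and, with flanks, between untreated lines (−0.0066), as did flanks of 100 kb (−0.011). Body against flanks turned for RB1 with flanks of 100 kb (0.021) and for NF1 (0.060), CDK12 (0.098) and SMAD4 (0.13) in the 16 µM libraries.

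With a library left out, values that changed sign ranged between lines in untreated cells from −0.0053 to 0.11 for CDK12, and at 16 µM from −0.12 to 0.0041 for RB1, −0.11 to 0.044 for NF1, −0.19 to 0.096 for MAP2K4 and −0.24 to 0.19 for STK11, and with flanks from −0.021 to 0.11 for CDK12 and −0.089 to 0.017 for MAP2K4. In PEO1 they ranged from −0.092 to 0.054 for NF1, −0.083 to 0.032 for CDK12 and −0.21 to 0.079 for SMAD4. In PEO4 they ranged from −0.023 to 0.16 for CDK12 and −0.0042 to 0.32 for SMAD4 at 16 µM, and from −0.20 to 0.044 for STK11 at 32 µM. The body of STK11 against its flanks ranged from −0.059 to 0.23. The 57 windows and 384 reads per library of STK11 gave it the widest intervals of the 6 genes.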
